A study of Arabidopsis thaliana with 18 samples.

Results

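MYB53, MYB92, MYB93, MYB9, MYB107, MYB39 and MYB41 are 7 R2R3-type MYB transcription factor genes of Arabidopsis thaliana that are linked to suberin. They are 7 of 27444 nuclear protein-coding genes in the gene table used for names and overlaps. Their codes, in the same order, are AT5G65230, AT5G10280, AT1G34670, AT5G16770, AT3G02940, AT4G17785 and AT4G28110. They were chosen by the H3K27me3 signal of MYB53, which differed strongly between the genotype pools, so every H3K27me3 difference at these genes is given as a description. For each mark a gene was represented by the peak with the largest overlap with its body, of 150 bp or more.

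The chromatin came from wild-type (WT) and chr4 mutant plants, and CHR4, also called PKR1, is a CHD-type chromatin remodeller. The tissue was enriched for the apical meristem, from plants kept for 5 weeks in short days of 8 h light and 16 h dark at 21 °C. Antibodies against H3K27me3, H3K4me3 and H3 each had 3 replicates of each genotype, 18 samples in 6 groups; neither the mutant allele nor the accession is named in the labels used here. Both peak tables together hold 10228 H3K27me3 and 16032 H3K4me3 peaks, each with 1 value for a pool named control and 1 for a pool named treat. No column or label used here says which pool is the mutant, so lower and higher always mean the value in treat relative to that in control. The table names put WT before chr4 but tie neither to control or treat. The word control is therefore not to be read as wild type, nor treat as chr4. With 1 pooled value on each side there is no spread between replicates, no test of this work, and the depth behind each value is unknown.

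Suberin is a lipid and phenolic polyester laid down in the walls of the root endodermis, the periderm and the seed coat, where it limits the flow of water and solutes. R2R3 MYB factors switch on the acyltransferases, cytochrome P450 enzymes, fatty acyl reductases and exporters that make it. H3K27me3 is deposited by Polycomb repressive complex 2 and marks developmental genes that are silent in a tissue, often over domains that reach past the gene. H3K4me3 marks the start of transcribed genes. Suberin is chiefly a product of roots, bark and seeds, while the shoot surface is sealed by the related polyester cutin.

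All 7 genes carried an H3K27me3 peak and 0 of 7 carried an H3K4me3 peak. Among all protein-coding genes, 24.7% had an H3K27me3 peak and 58.4% an H3K4me3 peak. The H3K27me3 peaks covered the whole gene body in every case except MYB9, where 77.3% was covered. They were long, from 2630 bp at MYB41 to 10220 bp at MYB92 with a median of 6780 bp, and 5 of 7 reached 5000 bp. The median over all protein-coding genes with a peak was 2370 bp, and 22.0% of those genes had a peak of 5000 bp or more. Long peaks were not particular to these 7 genes. The shoot apex markers used below had a median of 6030 bp, with 71.4% at 5000 bp or more. Root markers had 8165 bp and 75.0%, and other MYB genes 3710 bp and 30.1%.

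**Figure D1:**
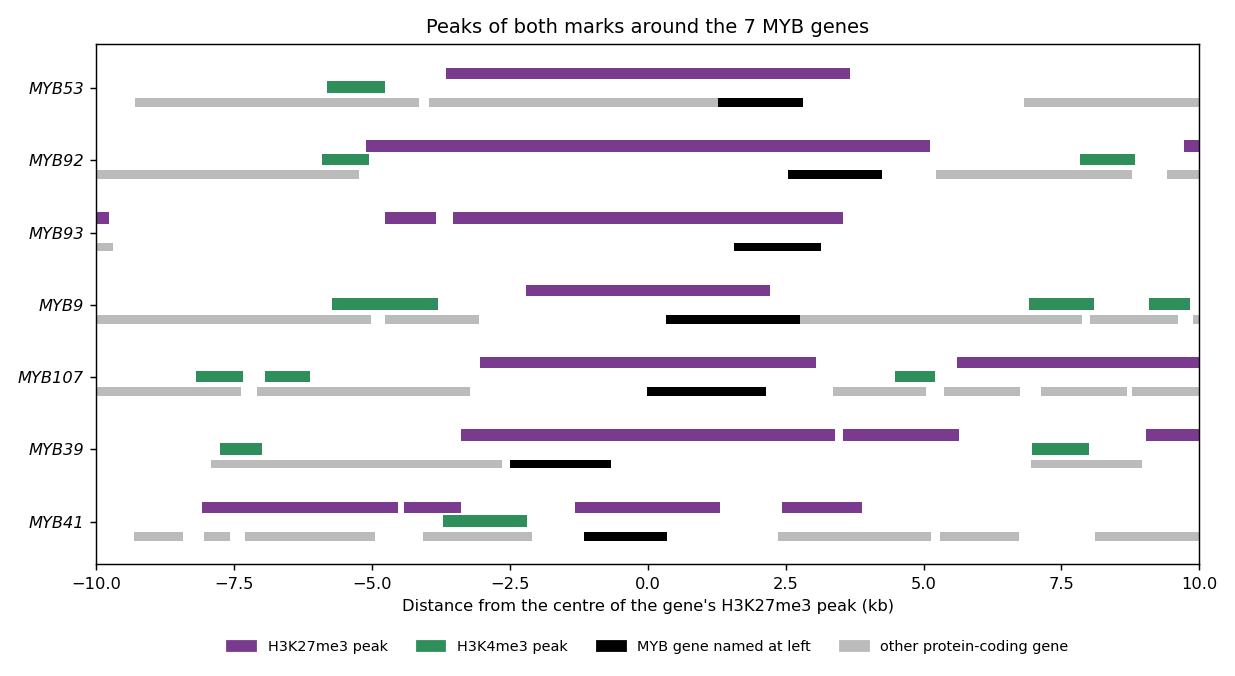
Peaks of H3K27me3 (purple) and H3K4me3 (green) and protein-coding genes (grey, with the MYB gene of each row in black) are drawn by distance in kb from the centre of the H3K27me3 peak of each MYB gene. A purple bar lies over every black bar, and no green bar touches one.

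The endodermal group is described first. MYB53, MYB92 and MYB93 are close paralogues, and MYB53, MYB92, MYB93 and MYB41 act together in promoting suberin in the root endodermis. The MYB53 peak (chromosome 5, 26063170 to 26070510, TAIR10 coordinates as in the deposited table) had an H3K27me3 total signal of 37731 in control and 1544 in treat. The treat pool thus held 4.09% of the control value, a 24.4-fold difference. The deposited height of the same peak, whose definition is not given, was 6259 in control and 974 in treat, a 6.42-fold difference. The authors' deposited table also gives a width per pool, which never exceeded the peak length in the file but whose definition is not given there. At MYB53 that width was 7340 bp in control, the full peak, and 170 bp in the treat pool, 2.32% of it. Total signal, height and width of the peak were thus all low in the treat pool. The H3 libraries were not analysed here, and whether the deposited values were corrected for H3 is not stated by any source used here. The DNA recovered at this locus in each pool was therefore not measured.

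MYB92, which also activates genes of fatty acid synthesis, lay under the largest of the H3K27me3 domains (chromosome 5, 3224920 to 3235140). Its total signal was 74293 in control and 59255 in treat, a 1.25-fold difference. Its height was 15108 and 10487, a 1.44-fold difference and the largest in height among the 6 genes other than MYB53. The width was 10120 bp in control and 10220 bp in treat, so the deposited width was about the same in both pools while the height was lower in treat.

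MYB93, known as a restraint on lateral root formation that is expressed in endodermal cells over new laterals, had a peak of 7060 bp (chromosome 1, 12704000 to 12711060). Its total signal was 40320 in control and 37950 in treat, or 94.1% of the control value. Its width was 6860 bp and 6820 bp. The paralogues of MYB53 thus held nearly all of their H3K27me3 extent in the pool in which MYB53 did not.

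MYB41, a stress-inducible gene that turns on suberin synthesis when overexpressed, had the shortest peak of the family (chromosome 4, 13967870 to 13970500). Its total signal was 52103 in control and 38515 in treat, a 1.35-fold difference and the largest in total signal among the 6 genes other than MYB53. Its height was 9264 and 7602, and its width 2630 bp and 2300 bp. MYB39, also called SUBERMAN, a regulator of endodermal suberin, had 38751 in control and 35580 in treat over a peak of 6780 bp (chromosome 4, 9880710 to 9887490). Its height was 10602 and 9074, while its width went from 6210 bp to 6450 bp.

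MYB9 and MYB107 regulate suberin in the seed coat, and their values were the most alike between the pools. MYB9 (chromosome 5, 5512180 to 5516600) had a total signal of 36236 in control and 36833 in treat, the only member with the higher value in the treat pool. MYB107 (chromosome 3, 658820 to 664920) had 39865 and 39245. Their heights were 9324 and 8783 at MYB9 and 8255 and 8369 at MYB107.

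**Figure D2:**
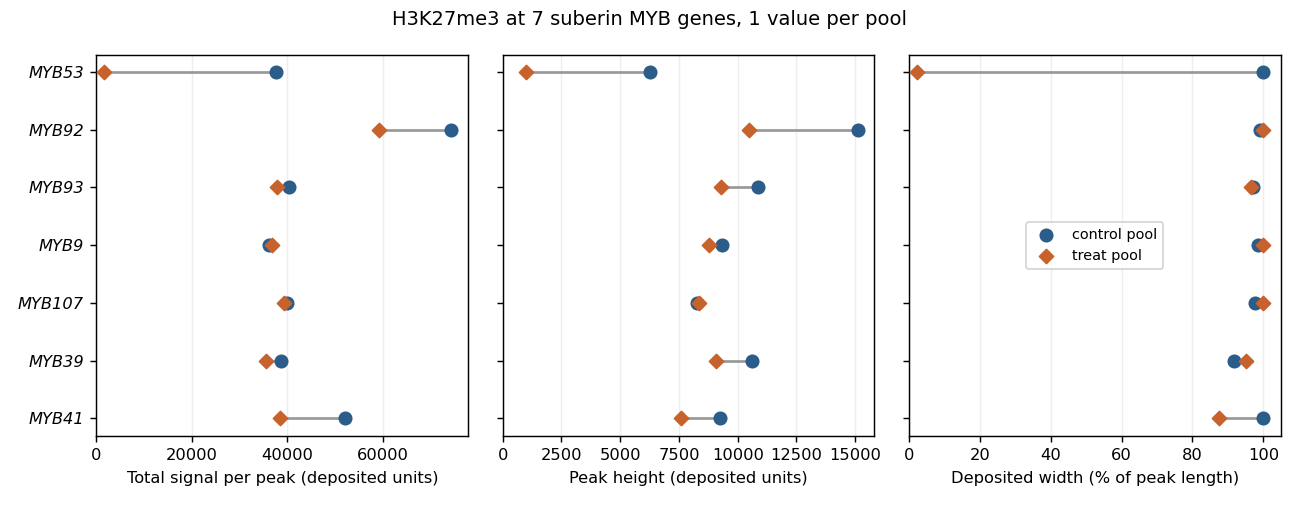
Each row is 1 gene, with the control pool as a blue circle and the treat pool as an orange diamond; the panels show H3K27me3 total signal and peak height in deposited units and the deposited width as a percentage of peak length. MYB53 goes from 37731 to 1544 in total signal and to 2.32% in width, while the other 6 genes keep at least 87.5% of the peak length in the treat pool.

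A gene was called when its FDR in the authors' deposited table was under 0.05 and its total signals differed at least 1.5-fold. By that rule 1 of 7 members was called lower in H3K27me3, MYB53, against a background of 2.95% of protein-coding genes with a peak. None was called higher, against 1.17%. MYB53 is the gene the family was chosen for, so nothing is read from that count. The call was lost at a stricter FDR, under 0.001, and held under the other 9 alternatives. Most of those read the same peak and total signal, so holding was fixed by the value that picked the gene. Only peak height is another measure. The FDR in the authors' deposited table was 0.00167 for MYB53 and ran from 0.179 at MYB41 to 0.938 at MYB107 for the other 6 genes; its computation is not stated in any source used here. The median log2 ratio of the 7 genes was -0.12 from the values of the authors' deposited table, beside -0.18 over all protein-coding genes with an H3K27me3 peak. Without MYB53 the 6 ratios ran from -0.44 to 0.024 in the authors' deposited table, with a median of -0.11. Peak height gave a median of -0.23 over the 7 genes and turned the small differences of MYB9 and MYB107 the other way.

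The authors' deposited table also holds an FDR for a local loss and a local gain inside each H3K27me3 peak, whose computation is not stated. It comes from the same H3K27me3 contrast that picked the family, so it is given as values only. A local loss FDR under 0.05 stood at 3 of 7 members in the authors' deposited table, beside 17.2% of protein-coding genes with an H3K27me3 peak. They were MYB53 (0.000669), MYB41 (0.0426) and MYB92 (0.04998). The lowest local gain FDR among the members in the authors' deposited table was 0.0651, also at MYB92. MYB41 and MYB92 are the 2 genes other than MYB53 with the lowest total signal ratios in the treat pool. Among the close relatives, the authors' deposited table gave a local loss FDR of 0.0378 for MYB102, 0.113 for MYB49 and 0.128 for MYB74.

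The genes were also ordered by deposited height. No source used here says how height was computed or whether it depends on peak length. At the cutin gene CYP86A4 the H3K27me3 height in treat, 84.9, was above the total signal, 73.8. The orders and shares below are therefore those of the deposited score and are not read as levels free of length. In the control pool the order was MYB92, MYB93 (10856), MYB39, MYB9, MYB41, MYB107 and MYB53. In the treat pool it was MYB92, MYB93 (9287), MYB39, MYB9, MYB107, MYB41 and MYB53, so that MYB41 and MYB107 changed places and MYB53 stayed last. The MYB53 control height exceeded that of 56.0% of protein-coding genes with a peak, and its treat height exceeded that of 6.22%. The other 6 genes lay between 67.2% and 92.5% in control and between 71.9% and 86.9% in the treat pool. With 1 value per pool, no spread can separate neighbours in these orders. Per kb of peak, total signal was highest at the short MYB41 peak, with 19811 in control and 14645 in treat. MYB53 had 5140 per kb in control, the lowest of the family, and 210.3 per kb in the treat pool. The other 5 genes lay between 5711 at MYB93 and 8198 at MYB9 in the control pool. Whether deposited total signal grows in proportion to peak length is not stated, so a short peak can stand high per kb by its length alone. The 150 bp peak at another MYB gene, MYB59, had 52605 per kb in control at a height of 812. The 10220 bp MYB92 peak had 7269 per kb in control at a height of 15108. The order per kb is therefore not read as an order of mark level.

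A peak value belongs to the whole peak and not to the gene alone. MYB53 took up 21.0% of its peak, while its protein-coding neighbour AT5G65225 took up 68.1% and had 94.4% of its body inside it. A long non-coding RNA gene, AT5G09325, lay within the same peak. The low treat signal therefore covers a stretch shared by MYB53 and AT5G65225, and the share that lies on MYB53 cannot be read from 1 value per peak. The MYB92 peak was similar in plan, with 16.7% on MYB92 and 62.7% on the non-coding RNA gene AT5G10278. The MYB9 peak also reached a protein-coding neighbour, DOT2 (13.6% of its body), and the MYB39 peak reached AT4G17780 (62.2%). The peaks of MYB93, MYB107 and MYB41 held no other annotated gene.

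A signal this much lower in the treat pool was uncommon among long domains. Of 780 nuclear H3K27me3 peaks of 5000 bp or more, 6 were called lower (0.769%) and 0 higher, and MYB53 had the lowest ratio of all. At least a 10-fold lower total signal in the treat pool was seen at 134 of 3433 peaks shorter than 500 bp, at 2 of 2225 peaks from 2000 bp to below 5000 bp, and at 1 of 780 peaks of 5000 bp or more, that of MYB53. Among the 169 nuclear peaks that were 10-fold lower it was the longest, and the next had lengths of 3650 bp and 2770 bp. The 3650 bp peak went from 22194 in control to 53.8 in treat, a larger fold than at MYB53. Of 1507 nuclear peaks with at least the control signal of MYB53, the MYB53 peak was the only one 10-fold lower. These are the values that picked the gene, so they place it and test nothing.

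AT5G65225, on the same peak, has the same values as MYB53. The genes with the most similar ratio on any other peak of 5000 bp or more were far from it. By distance of the log2 ratio over the 2 pools they were AT2G18140 (44224 in control and 21537 in treat), BKI1, an inhibitor of brassinosteroid signalling (24886 and 12363), NAC010 and GRX480, which share 1 peak (20059 and 10345), and CSLA01 (34381 and 19133). Their differences from the MYB53 log2 ratio began at 3.57. Each of them kept a treat width of at least 60.5% of the peak, against 2.32% at MYB53.

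**Figure D3:**
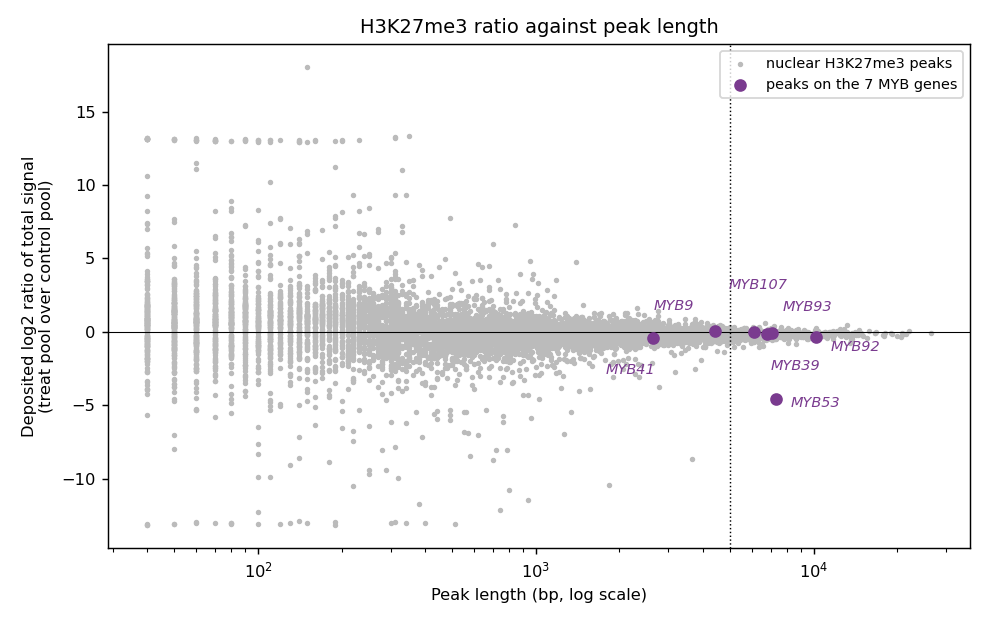
Each grey point is a nuclear H3K27me3 peak, with its length in bp on a log scale and the log2 ratio of total signal, treat pool over control pool, from the authors' deposited table; purple points are the peaks of the 7 MYB genes and the dotted line stands at 5000 bp. Ratios scatter widely among short peaks and little among long ones, and MYB53 at -4.61 lies apart from the other long peaks.

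The surroundings of MYB53 were looked at after these values were seen. Within 30 kb on both sides lay 5 other H3K27me3 peaks and 10 H3K4me3 peaks, and 0 of either were called in either direction. Over all nuclear peaks 8.39% were called in H3K27me3 and 5.97% in H3K4me3, so nothing is read from these few peaks. The nearest H3K4me3 peak, 1090 bp from the edge of the domain, had 39603 in control and 39096 in treat. On the opposite side the nearest lay 6870 bp away, with 18676 and 14316. The log2 ratios of the 10 H3K4me3 peaks ran from -0.38 to 0.56 in the authors' deposited table. The 5 H3K27me3 peaks had treat signals from 5849 to 23182. Their lengths ran from 70 bp to 3760 bp, so these signals are not compared as levels with that of the 7340 bp domain. The other members had called H3K27me3 peaks within 30 kb in 2 cases, with 2 of 6 lower near MYB92 and 1 of 5 lower near MYB41. Beside the share of 8.39% over all nuclear peaks, these few peaks are also too few to be read. The closest of the pair near MYB92, 4610 bp from its domain, had 9556 in control and 1429 in treat.

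H3K4me3 was not used to pick the genes, and no member had a peak of it to compare. The nearest H3K4me3 peak lay 1028 bp from the MYB41 gene body, 2339 bp from MYB107, 3583 bp from MYB92, 4136 bp from MYB9, 4488 bp from MYB39, 6031 bp from MYB53 and 20699 bp from MYB93. At MYB41 this peak had 32999 in control and 30289 in treat. At MYB53 the H3K27me3 difference was thus accompanied by no H3K4me3 peak on the gene in the table. A table of peaks does not give the signal below the caller's threshold, so a weak H3K4me3 signal on these genes was not measured here.

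The wider MYB family was counted next. Of 108 other genes whose symbol is MYB and a number, 73 (67.6%) had an H3K27me3 peak and 26 (24.1%) an H3K4me3 peak; 6 had both and 15 neither. Of the 73, 1 was called lower in H3K27me3, against a background of 2.95%, and 0 higher, against 1.17%. The gene called lower was MYB59, from 7891 in control to 297 in treat. That peak covered 8.85% of the MYB59 body, and the call was lost without low peaks and when a peak had to cover 50% of the gene. The MYB53 call held under both settings. Of the uncalled genes with the largest ratios, MYB34, a regulator of indole glucosinolates, had 10345 and 4746. MYB62 had 15438 and 7535, and MYB111, a flavonol regulator, had 17813 and 8704. MYB66, the root hair patterning gene WEREWOLF, had 5172 and 10946, the only one of these 4 with the higher value in treat. The family median was -0.20 in H3K27me3, from the authors' deposited table.

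In H3K4me3, 2 of 26 other MYB genes were called lower, against a background of 2.35%, and 1 of 26 higher, against 1.18%. MYB34 went from 8449 in control to 1407 in treat and MYB99 from 8751 to 4332. MYB20, a regulator of lignin and phenylalanine synthesis, went from 6740 to 11779. All 3 calls were lost when low peaks were left out. MYB30, MYB55, MYB88 and MYB17 had the largest ratios among the uncalled, and MYB30 had 6624 and 3501. The closest relatives of MYB41 are MYB49, MYB74 and MYB102. All 3 had an H3K27me3 peak and none an H3K4me3 peak. MYB74 had 36935 and 29971, MYB102 had 32237 and 27772, and MYB49 had 34906 and 31833.

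Suberin synthesis and export genes are the known targets of these factors. Of 14 genes of suberin synthesis and export, 10 had an H3K27me3 peak and 3 an H3K4me3 peak, and 0 were called in either mark. The background shares are 2.95% lower and 1.17% higher in H3K27me3, and 2.35% lower and 1.18% higher in H3K4me3. At shares this small, 0 calls in so short a list cannot tell it from the background, so nothing is read from that count. CYP86A1, which hydroxylates the fatty acids of suberin, had an H3K27me3 total signal of 89063 in control and 70753 in treat. GPAT7, a glycerol-3-phosphate acyltransferase, had 91283 and 74842, and KCS2, which elongates fatty acids, 32070 and 26893. KCS20, a related elongase, had both marks, with an H3K27me3 signal of 14128 and 10459 and an H3K4me3 signal of 22781 and 25315. The exporters ABCG20 and ABCG2 had H3K4me3 without H3K27me3. ABCG20 had 37735 and 32557, and ABCG2 had 32255 and 32361. The list's median log2 ratio in H3K27me3 was -0.22 in the authors' deposited table.

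Cutin genes were counted in the same way, and 13 of 18 genes of cutin and cuticle had an H3K4me3 peak, 12 an H3K27me3 peak and 7 both. CYP86A4, a cutin fatty acid hydroxylase, was called in both marks as 1 of 12 lower in H3K27me3 and 1 of 13 higher in H3K4me3. The shares over all protein-coding genes with a peak are 2.95% and 1.18%. Its H3K27me3 total signal was 9006 in control and 73.8 in treat, and its H3K4me3 signal was 6665 and 11683. Its H3K27me3 peak covered 23.2% of the gene body, and both calls were lost without low peaks and when a peak had to cover 50% of the gene. GPAT6, a cutin acyltransferase, had an H3K27me3 signal of 30769 and 22808, SHN1, an activator of cuticle genes, 79984 and 60606, CYP86A2 31840 and 25578, and DCR 43604 and 36268. BDG1, needed for a normal cuticle, had an H3K4me3 signal of 7620 and 4068 and was not called.

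Of 9 genes of the Casparian strip and endodermis, 4 had an H3K27me3 peak, 2 an H3K4me3 peak and 0 were called. Beside the background shares given for the suberin genes, this list is also too short for 0 calls to be read. SHR, a root radial patterning factor, had an H3K27me3 signal of 52731 in control and 35860 in treat. CASP1, which builds the Casparian strip membrane domain, had 50967 and 41815, and MYB36, the activator of the Casparian strip genes, had 57187 and 52115. ESB1, a dirigent-like protein of the Casparian strip, had an H3K4me3 signal of 25718 and 18810, and SCR, a partner of SHR, had 30035 and 27687.

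The tissue label was compared with marker genes. Of 8 shoot apex markers 5 (62.5%) had an H3K4me3 peak (STM, KNAT1, KNAT2, ATML1 and CLV1), while WUS, CLV3 and CUC3 had none. The share over all protein-coding genes is 58.4%, so that count says nothing about the tissue. The H3K4me3 peaks of STM, KNAT1 and KNAT2 covered 8.90%, 7.22% and 3.44% of the gene body. An H3K27me3 peak stood at 7 of the 8 apex markers, all except CLV1, and 4 had both marks. Over all protein-coding genes 24.7% had an H3K27me3 peak and 3.35% had both marks. Of 4 root markers (PLT1, PLT2, WOX5 and RHD6) 0 had an H3K4me3 peak and 4 had an H3K27me3 peak. CUC3, a boundary gene, was called lower in H3K27me3 (43316 and 11368), 1 of 7 apex markers with a peak, against a background of 2.95%. KNAT2 was called higher in H3K4me3 (2988 and 6769), on that short peak, 1 of 5 against 1.18%. Nothing is read from 1 call in so short a list. In pooled tissue, fewer cells with a mark and less mark per cell cannot be told apart.

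**Figure D4:**
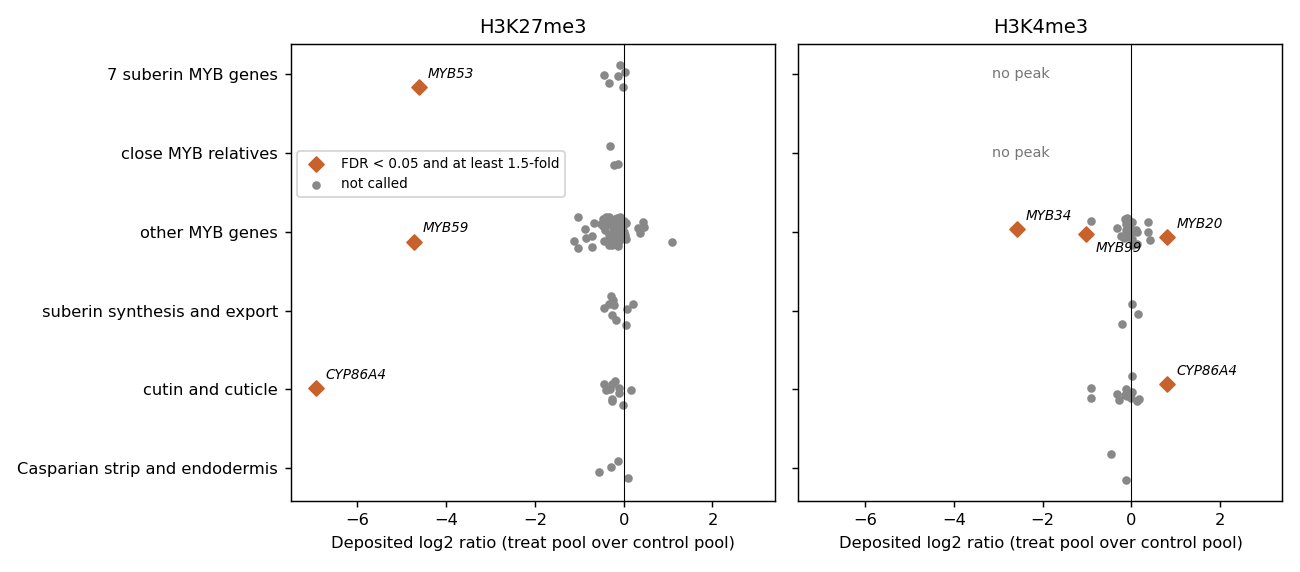
Points are genes with a peak, by list, with the log2 ratio of total signal from the authors' deposited table for H3K27me3 (left) and H3K4me3 (right); orange diamonds were called and grey circles were not, and vertical offsets only spread the points. The close relatives, the MYB genes of the cuticle list and MYB36 of the endodermis list also appear among the other MYB genes. MYB53, MYB59 and CYP86A4 stand apart in H3K27me3, and the 7 MYB genes and the close relatives have no H3K4me3 peak.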

How the data were processed

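H3K27me3, H3K4me3 and H3 ChIP-seq was made from 18 samples, and the 2 deposited peak tables were analysed. Bowtie and TAIR10 are named in the submitters' processing notes; the peak caller, its threshold and the normalization are not given in the sources used here. Per the file headers, the tables hold a height and a total signal for each pool (scores deposited by the authors with no stated unit), a width in bp, log2 ratios deposited by the authors, and p-values and FDR values deposited by the authors. The table names say that 3 replicates per genotype were pooled. Depth is unknown, so no interval is given.

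From these, peaks were linked to protein-coding genes by overlap (Python 3.11.15, pandas 2.3.3). Gene names and neighbours came from a RefSeq table of TAIR10.1, whose coordinates are not printed, so overlaps rest on that build lining up with TAIR10. The link and the calls were tested on simulated data. Genes named were the 7 members, neighbours on their peaks, called list genes (at most 6 per list and mark), uncalled list genes with the largest ratios (at most 4), and the 5 genes on other long peaks nearest to MYB53 in ratio. SGN3 was dropped from its list because its symbol did not match. The members and lists were chosen with earlier results of these data known. Protein and promoter sequences were not used here. Alternatives changed the overlap rule, the measure, the centring, the thresholds and a filter on low signal.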

Additional observations from a re-analysis of the deposited data

How the results depend on the processing

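No paired analysis was possible because the tables give 1 value for each genotype's pool, so no replicate number could serve as a block and no replicate could be left out. The MYB53 call held in 9 of 10 alternatives, with log2 ratios from -4.61 to -2.68 (peak height), and was lost at an FDR under 0.001 (0 members lower). Apart from peak height, these alternatives reuse the total signal that picked the gene, so nothing is read from the held calls. All 7 members had an H3K27me3 peak and 0 an H3K4me3 peak under every alternative that changes the link. A median was taken as moved at 0.1 on the log2 scale, and a count when it left 1.5 times the main count in either direction. Sums over all peaks that overlap a gene have no FDR, so calls on them used the 1.5-fold rule alone and differ from the main calls in both choices. The cause of the changes below was not tested, except that tighter rules leave fewer genes.

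The member median in H3K27me3 was -0.23 with peak height and 0.020 when recentred on the median of nuclear peaks (-0.14). Recentring turned the ratios of MYB93 (0.056), MYB39 (0.020) and MYB107 (0.12), and peak height those of MYB9 (-0.086) and MYB107 (0.020). Recentred H3K27me3 medians were -0.053 for other MYB genes, -0.079 for suberin, -0.12 for cutin, -0.066 for the endodermis list and -0.072 for close relatives, which had -0.40 with peak height.

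Of other MYB genes, those lower in H3K27me3 numbered 0 with 50% of the gene body, at an FDR under 0.001 or without low peaks, 2 with 500 bp added or peak height, 9 at 1.5-fold alone and 8 with all peaks summed at 1.5-fold alone; 1 was higher at 1.5-fold alone. With an H3K4me3 peak there were 13 with 50% of the gene body and 14 without low peaks. Lower in H3K4me3 were 0 under those settings and at an FDR under 0.001, and 1 with peak height. Higher in H3K4me3 were 2 with 1 bp or with peaks summed at 1.5-fold alone, and 0 with peak height, at 2-fold, at an FDR under 0.001 or without low peaks.

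Of suberin genes 1 was lower in H3K27me3 with peaks summed at 1.5-fold alone, and 0 had an H3K4me3 peak over 50% of the gene body and 5 with 500 bp added; their H3K4me3 median was -0.15 with peak height. Of cutin genes 0 were lower in H3K27me3 with 50% of the gene body, at an FDR under 0.001 or without low peaks. With an H3K4me3 peak there were 5 with 50% of the gene body and 6 without low peaks, with medians of -0.0056 and -0.00061. Lower in H3K4me3 were 1 with 1 bp, 4 with peaks summed at 1.5-fold alone and 2 at 1.5-fold alone without summing; 0 were higher with 50% of the gene body, peak height, 2-fold, an FDR under 0.001 or without low peaks. Of endodermis genes 5 had an H3K4me3 peak with 1 bp or summed peaks, 1 with 50% of the gene body and 4 with 500 bp added. Their medians were -0.12 with 1 bp or 50% of the gene body, -0.15 with 500 bp added and -0.051 with summed peaks, and 1 was higher with 1 bp or with peaks summed at 1.5-fold alone. The other 311 counts and medians stayed within these limits.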
